A study of Caenorhabditis elegans with 12 samples.

Results

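The left end of chromosome IV held the most crowded stretch of H3K4me3 peaks on the autosomes of *Caenorhabditis elegans* L3 larvae. Its members are the peaks of the deposited H3K4me3 list that lie on chromosome IV and start in the first 5 Mb (ce10 build, positions counted from 1). They numbered 247, which is 15.8% of the 1562 peaks of the list and 60.2% of the 410 on chromosome IV (95% Wilson interval 55.4 to 64.9). The first 5 Mb make up 28.8% of the length of IV, taken here up to its last listed peak. The members were chosen by position, in an interval known to be crowded, so their number, spacing and grouping are descriptions and carry no test.

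The larvae were wild-type N2, with no transgene or mutation in the labels, and were raised at 25 °C in liquid medium with HB101 *Escherichia coli* as food and collected 24 to 26 h after feeding. Chromatin came from whole larvae, so the lists do not separate tissues. Among the 12 libraries of the series, 2 come from H3K4me3 chromatin immunoprecipitation (ChIP) and 3 from ELT-2 ChIP, beside 2 mock IgG, 3 input and 2 RNA-seq ones. Each antibody has 1 deposited peak list, with a position, a summit and the peak caller's score for every peak. The lists do not give values by library, so the spread between replicates and the read depth are unknown here.

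H3K4me3 is the trimethylated form of a lysine in the tail of histone H3. It is written by Set1/COMPASS-type methyltransferases, and in animals it is found mostly at promoters of transcribed genes, around the start of transcription. On *C. elegans* autosomes, genes are denser in the centre and repeats in the arms, and many genes lie in operons, where several genes share a promoter. ELT-2, a transcription factor of the GATA family, acts in the worm intestine, where it binds near intestinal genes. Sites are named here by position, since no gene annotation of the ce10 build was used.

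Crowding at the left end of IV was steep. There were 49.4 members per Mb (exact Poisson interval 43.4 to 55.96), against 13.2 peaks per Mb on the rest of IV (11.2 to 15.3) and 17.6 on chromosomes I, II, III and V (16.6 to 18.6). To set the interval beside stretches of like kind, each of the 5 autosomes was divided into its first 5 Mb, its last 5 Mb and the middle between them. Of these 15 stretches the left end of IV was the fullest. The other 14 ran from 3.40 peaks per Mb at the right end of V to 29.2 at the right end of III, with a median of 16.1. All intervals on counts, shares and medians take the peaks as independent of each other and cover only counting error. In windows of 100 kb the variance of the counts was 1.49 times their mean at the left end of IV. It was 1.40 times on the rest of IV and 1.59 times on I, II, III and V. Independent peaks at an even density would have equal variance and mean, so the intervals on density are likely too narrow.

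**Figure D1:**
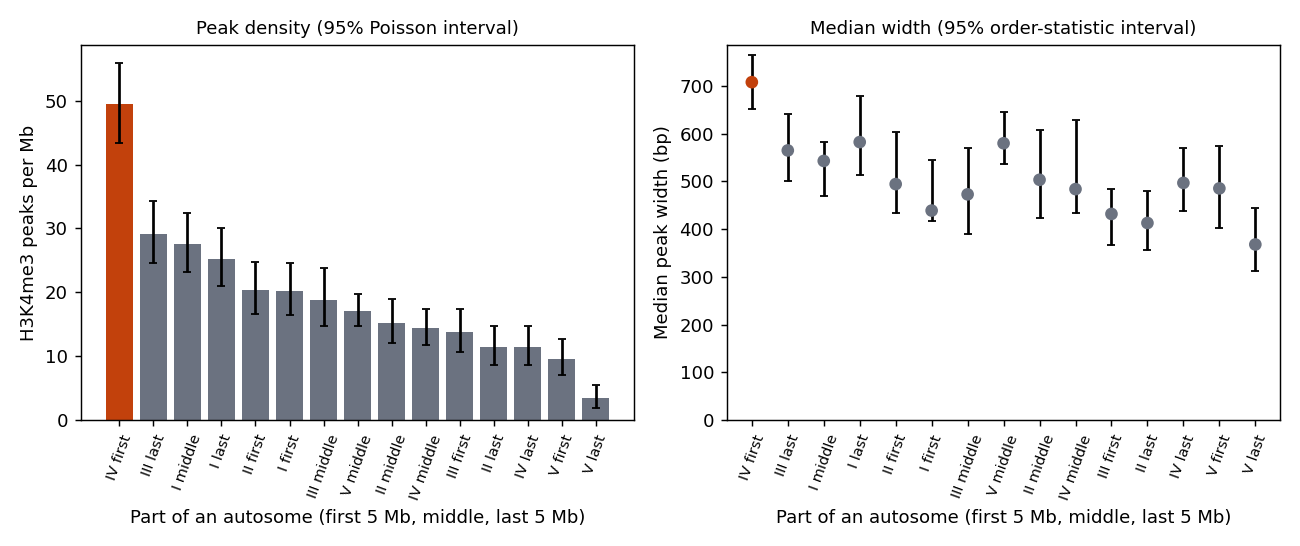
H3K4me3 peaks per Mb (left, bars from 0, 95% Poisson intervals) and median peak width in bp (right, 95% order-statistic intervals) in the first 5 Mb, middle and last 5 Mb of each autosome, with the left end of IV first in colour and the others ordered by density. The left end of IV, at 49.4 peaks per Mb and a median width of 708 bp, stands above the other 14 stretches in both panels.

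Within the interval, peaks were spread over its whole length and thinned towards its right side. The successive Mb from the left held 54, 60, 48, 52 and 33 members. In windows of 500 kb the count was between 24 and 35 over the first 4 Mb, with the exception of the window from 2.0 to 2.5 Mb, which held 16. The windows from 4.0 to 4.5 Mb and from 4.5 to 5.0 Mb held 18 and 15, and the next, from 5.0 to 5.5 Mb, held 8. The counts by window were therefore lower before the limit was reached. All 15 members of the window from 4.5 to 5.0 Mb lay between 4512958 and 4811344, and the next listed H3K4me3 peak started at 5090916. The limit thus fell in a stretch without listed H3K4me3 peaks. The low count of that window came with this empty stretch, so the windows do not show how gradual the fall was. The 3 members nearest the limit lay 252.3, 250.9 and 189.4 kb inside it, with widths of 897, 1704 and 737 bp and scores of 86.03, 281.06 and 74.48. The nearest 3 outside lay 90.9, 91.4 and 183.8 kb beyond it, with widths of 381, 720 and 375 bp and scores of 57.67, 43.59 and 75.99.

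In steps of 100 kb, 2 of the 50 windows of the interval held no peak (4.0%). On the rest of IV 42 of 124 were empty (33.9%), and on I, II, III and V 171 of 649 (26.3%). The median window held 5 members in the interval, against 1 peak on the rest of IV and 1 on the other 4 autosomes. The fullest window of the interval, from 1.5 to 1.6 Mb, held 13 members with a median width of 802 bp and a median score of 34.37. Its peaks were thus many, wide and mostly near the list's lowest score of 30.01.

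**Figure D2:**
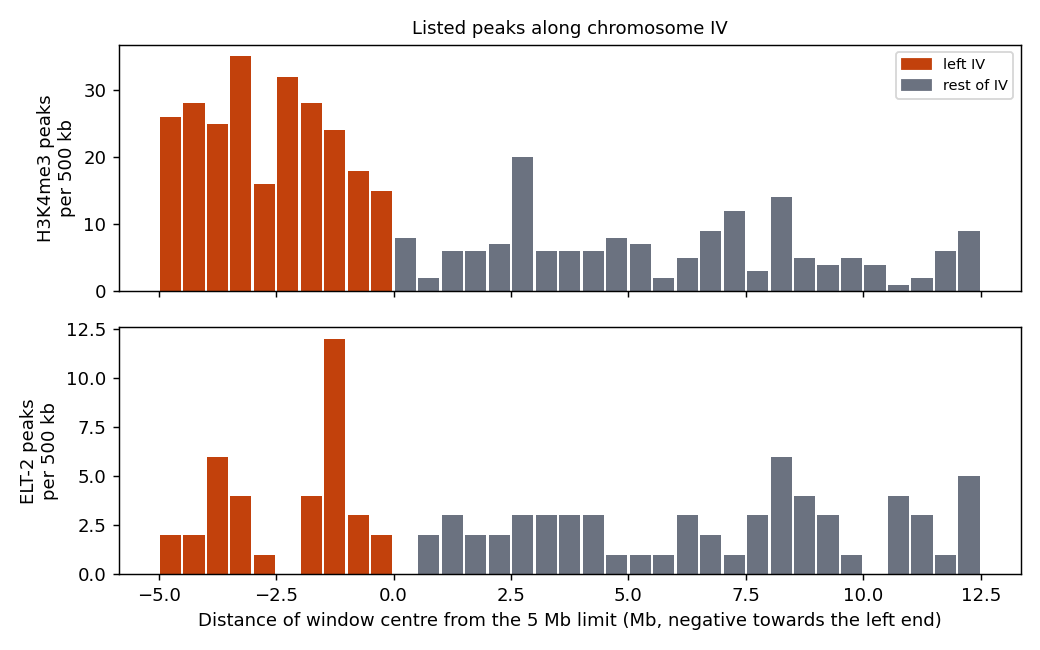
Number of listed H3K4me3 peaks (top) and ELT-2 peaks (bottom) in windows of 500 kb along chromosome IV, against the distance of the window centre from the 5 Mb limit in Mb. H3K4me3 counts lie between 15 and 35 left of the limit and between 1 and 20 right of it, while the ELT-2 counts have a single high window of 12, from 3.5 to 4.0 Mb.

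Neighbouring summits lay a median of 11.5 kb apart in the interval (quartiles 3.40 and 28.4 kb, 246 distances). On the rest of IV the median was 44.5 kb (11.4 and 91.97 kb, 162 distances), and on I, II, III and V it was 31.6 kb (9.50 and 72.5 kb, 1134 distances). The other 14 autosomal stretches had medians from 22.98 kb at the right end of III to 167.8 kb at the right end of V. Distances over 100 kb were rare among the members, at 2 of 246 (0.813%), against 22.2% on the rest of IV and 15.4% on the other 4 autosomes. The longest stretch between member summits, 120.0 kb, ran from 4049203 to 4169211. The next ran from 2212778 to 2316895 (104.1 kb), from 2085005 to 2177987 (92.98 kb), from 1812808 to 1901028 (88.2 kb) and from 4566973 to 4651095 (84.1 kb). Of these 5 stretches, those starting at 2212778 and 1812808 contained 1 ELT-2 summit each and the other 3 contained none.

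The excess of short distances lay between 1 and 20 kb. The class from 1 to 5 kb took 59 of 246 distances in the interval (24.0%), against 8.02% on the rest of IV and 9.44% on I, II, III and V. The class from 5 to 20 kb took 33.3% in the interval, against 14.2% on the rest of IV and 19.7% on the other 4 autosomes. Distances up to 1 kb showed no such excess. They made up 18 of 246 (7.32%) in the interval, and 9.26% both on the rest of IV and on the other 4 autosomes.

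**Figure D3:**
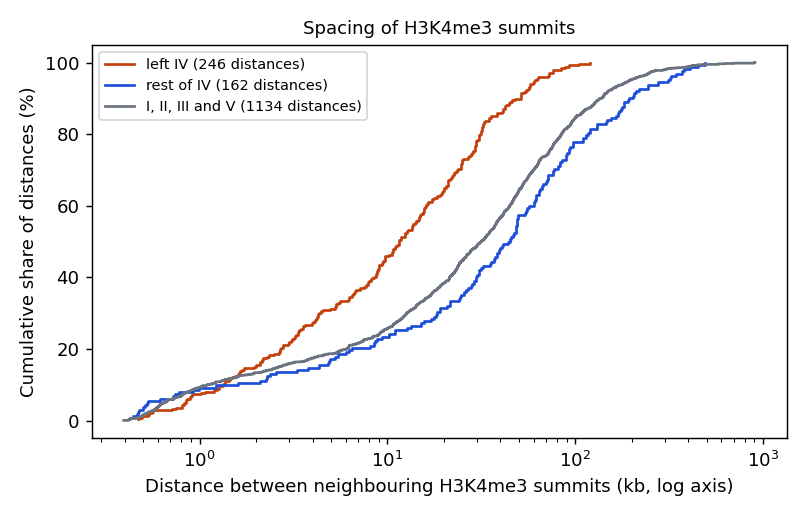
Cumulative share (%) of distances between neighbouring H3K4me3 summits against the distance in kb on a log axis, for the left end of IV (246 distances), the rest of IV (162) and I, II, III and V (1134). The 3 curves run together up to about 1 kb and then part, with a median of 11.5 kb at the left end of IV, 44.5 kb on the rest of IV and 31.6 kb on the other 4 autosomes.

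Grouping was described by chaining summits at most 5000 bp apart. In the interval 133 of 247 members (53.8%, Wilson interval 47.6 to 59.96) had such a neighbour, against 52 of 163 on the rest of IV (31.9%, 25.2 to 39.4) and 394 of 1138 on I, II, III and V (34.6%, 31.9 to 37.4). Among the other 14 autosomal stretches the share reached 41.8%, at the right end of III. The members formed 56 groups, of which 41 were pairs, 10 held 3 members, 4 held 4 and 1 held 5. Groups of 3 or more took in 51 members (20.6%), against 7.36% of peaks on the rest of IV and 7.38% on the other 4 autosomes. With a distance of 1000 bp the order of the regions turned. Then 14.2% of members were grouped (10.4 to 19.1), against 18.4% on the rest of IV (13.2 to 25.1) and 18.2% on the other 4 autosomes (16.1 to 20.5). Closer grouping follows from a higher density alone, and how much of it goes beyond that was not tested.

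The groups differed in make-up. The group of 5, from 385520 to 394708, spanned 9.19 kb and joined strong with weak peaks, with scores from 33.55 to 290.3 and a median width of 490 bp. A group of 4 from 424933 to 428566 was compact, at 3.63 kb, with scores from 33.3 to 243.38. The remaining 3 groups of 4 that complete the 5 fullest had no strong member. That from 1560560 to 1566317 had scores from 31.67 to 43.89, and its peaks covered 73.8% of its span of 5.76 kb. That from 2970075 to 2978312 had scores from 31.47 to 48.53 over 8.24 kb. That from 1914433 to 1924244 had scores from 32.17 to 61.5 over 9.81 kb, and its widest peak was 2892 bp. Grouped and single members were alike in score, with medians of 46.28 and 46.22, and their median widths were 732 and 674.5 bp.

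The peak names carry running numbers, which may count a longer list from which the deposited peaks were drawn. From the first to the last listed peak of the interval 2075 numbers were used, or 415 per Mb, against 1488 numbers or 120.2 per Mb on the rest of IV. The share of numbers that were listed was 11.9% in the interval, against 11.0% on the rest of IV. The crowding was thus present in the numbers as well as in the listed peaks. Of neighbouring listed members, 48 of 246 pairs (19.5%) had consecutive numbers, against 22.2% on the rest of IV. The longest stretches between member summits, given above, were not free of numbers. In the order given there, they held 61, 33, 45, 34 and 52 unlisted numbers. These stretches thus lack listed summits, and whether the unlisted numbers stand for called peaks was not tested.

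Scores, the caller's own and compared only within the H3K4me3 list, were low in most members. Their median was 46.22 (quartiles 34.6 and 88.1, order-statistic interval 43.22 to 49.79). The rest of IV had a median of 57.67 (41.2 and 117.0, interval 51.17 to 71.64) and I, II, III and V one of 60.38 (38.9 and 108.0, interval 56.26 to 63.83). The other 14 stretches had medians from 46.60 at the left end of II to 73.56 in the middle of III, so the left end of IV had the lowest median of the 15, with the left end of II close to it. Peaks of one list are not replicates, so no p is given for this or for the widths.

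The low median came with a spread that reached both ends of the list. The list was divided at its score quartiles of 38.2, 57.0 and 104.8 into 4 classes. The lowest class held 88 members, which was 22.5% of that class over the whole list (18.6 to 26.9). The following classes held 65, 48 and 46 members, or 16.7% (13.3 to 20.7), 12.3% (9.41 to 15.9) and 11.8% (8.94 to 15.3) of each. Per Mb, the lowest class was 6.41 times as dense in the interval as on the rest of IV, at 17.6 and 2.75 peaks per Mb. The ratio was 3.58 in the second class, 3.21 in the third and 2.42 in the highest. Crowding against the rest of IV was therefore steepest among weak peaks, and present in every class. In the highest class the right end of I was as dense as the interval, at 9.20 peaks per Mb each.

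The strongest members, a part of the highest class, were also counted apart. Among the 157 peaks with the top 10% of scores, 26 were members (16.6%, Wilson interval 11.6 to 23.2), close to the members' 15.8% of the whole list. That gave 5.20 such peaks per Mb in the interval (Poisson interval 3.40 to 7.62), against 1.37 on the rest of IV (0.80 to 2.20), a ratio of 3.79. The right end of III had 5.00 per Mb. Within the highest of the 4 classes the median score was 214.3 among members, against 138.5 on the rest of IV and 160.5 on I, II, III and V. The members thus held a larger share of the weakest peaks than of the list. Their shares of the 2 upper classes were smaller, at 12.3% and 11.8%, though the interval of the first (9.41 to 15.9) holds 15.8%. The interval for the top 10% holds the shares of both upper classes as well as that of the list. Its 26 members therefore do not show whether the strongest peaks depart from the trend.

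The 10 members with the highest scores were spread over the interval. The highest, 562.74, was a peak of 2507 bp from 653551 to 656057 and ranked 8 in the whole list. The second, from 4659665 to 4660577, scored 493.56 with a width of 913 bp. The third, from 2494567 to 2495263, scored 453.61 at 697 bp. These 3 each lay in a pair with a weaker neighbour within 5000 bp. The next, from 3337150 to 3338881, stood alone, with a score of 452.5 and a width of 1732 bp. The peak from 1012119 to 1013588 scored 432.72 at 1470 bp, and that from 2388291 to 2390188 scored 426.03 at 1898 bp. The remaining 4, starting at 3213594, 126252, 385520 and 4749141, scored between 281.06 and 364.58 with widths from 667 to 1704 bp. Of the 10, 8 belonged to a pair or larger group.

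Members were wide, although most scored low. Their median width was 708 bp (quartiles 475 and 1118, order-statistic interval 652 to 764). On the rest of IV the median was 491 bp (376.5 and 819.5, interval 448 to 570), and on I, II, III and V it was 512.5 bp (375 and 779.75, interval 484 to 543). The other 14 stretches had medians from 368 to 582.5 bp, so the left end of IV was the highest of the 15. Widths over 1000 bp occurred in 72 members (29.1%), against 17.8% on the rest of IV and 14.6% on the other 4 autosomes. Members covered 43.0 kb per Mb of the interval, against 8.63 on the rest of IV and 11.4 on the other 4 autosomes.

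Width was then compared within the 4 score classes, because wide peaks usually score high. In the lowest class the median width was 618.5 bp among members, against 401.5 bp on the rest of IV and 410.5 bp on I, II, III and V. In the second class it was 683 bp among members, against 430 and 442.5 bp in those regions. In the third it was 763.5 bp among members, against 541 and 490 bp. In the highest class it was 867.5 bp among members, against 823 and 757 bp, and 2 of the other 14 stretches had higher medians in that class. In each of the 3 lower classes the left end of IV had the highest median of the 15 stretches. The rank correlation of width with score was 0.27 among members (Spearman's rho, 247 peaks), against 0.47 over 163 peaks on the rest of IV and 0.40 over 1138 on the other 4 autosomes. Chromosome V had 0.24, also over 247 peaks, and 2 of the other 14 stretches were below the members. Peaks share libraries and local background, so these correlations are descriptions.

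**Figure D4:**
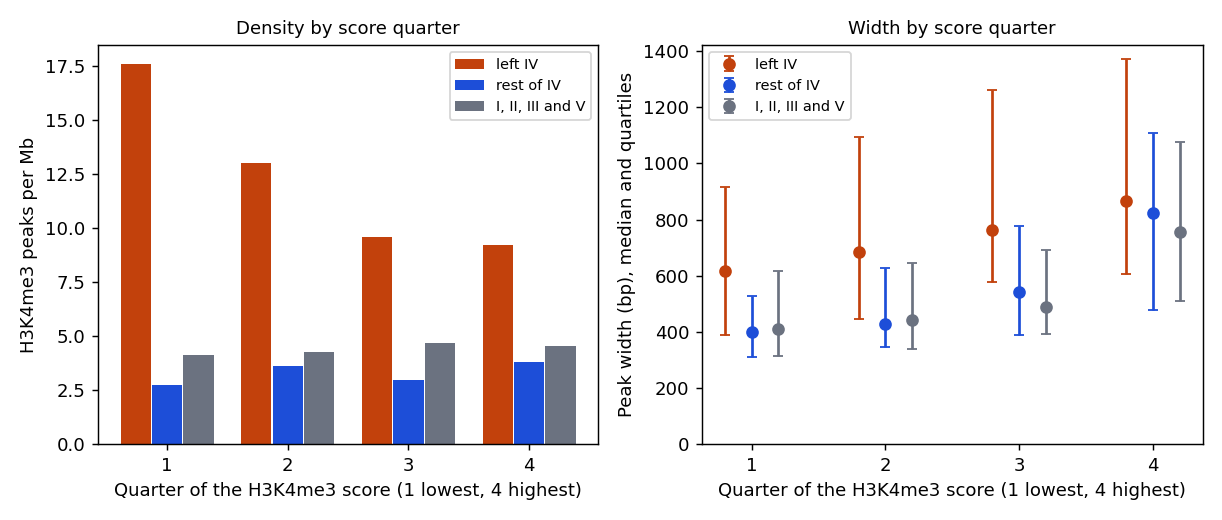
H3K4me3 peaks per Mb (left, bars from 0) and peak width in bp (right, points are medians and bars run between the quartiles) in 4 classes cut at the quartiles of the H3K4me3 score, for the left end of IV, the rest of IV, and I, II, III and V. The left end of IV is the densest in every class, from 17.6 peaks per Mb in the lowest to 9.20 in the highest, and its peaks are the widest in classes 1 to 3, while in class 4 the median widths of 867.5, 823 and 757 bp lie within the quartiles of one another.

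Wide, weak peaks were common among the members. Peaks wider than the list's upper quartile of 823 bp with a score at or under the list median numbered 129 in the list, and 51 of them (39.5%) were members. They were 20.6% of members (Wilson interval 16.1 to 26.1), against 6.13% of peaks on the rest of IV (3.37 to 10.9) and 5.89% on I, II, III and V (4.66 to 7.41). In the other 14 stretches the share ran up to 12.5%, at the left end of V. This class was defined after the values were seen. Its opposite, peaks at or under the median width with a score above the median, was scarce in the interval, at 7.69% of members against 20.9% on the rest of IV and 22.3% on the other 4 autosomes.

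The widest member, and an example of that class, ran over 4501 bp from 3998922 to 4003422 with a score of 49.12, and its summit lay near its right edge. The next widest ran from 3609246 to 3612263 (3018 bp, score 74.7), from 1914433 to 1917324 (2892 bp, score 57.6), from 916565 to 919442 (2878 bp, score 32.77) and from 3437966 to 3440834 (2869 bp, score 76.38). None of these 5 reached the upper score quartile of 104.8. Wide, weak members were not gathered in groups more than others, with 28 of 51 (54.9%) in a group, against 105 of 196 other members (53.6%).

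Summits lay off centre in a larger share of members than in the compared regions, and wide peaks had such summits more often in each region. A summit outside the middle 50% of its peak was found in 53 members (21.5%), against 10.4% on the rest of IV and 12.1% on I, II, III and V. Among peaks wider than 823 bp the shares were 43.3% of 97 members (Wilson interval 33.9 to 53.2), against 32.5% of 40 on the rest of IV (20.1 to 47.98) and 37.3% of 249 on the other 4 autosomes (31.6 to 43.5). Among narrower peaks they were 7.33% of 150 members (4.14 to 12.7), against 3.25% (1.27 to 8.06) and 5.06% (3.80 to 6.71). Within a width class the intervals of the 3 regions overlapped.

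Density dropped beyond the limit, while the median width in the next 2 Mb gave no clear change. Between 5 and 7 Mb the density was 11.0 peaks per Mb, and the 22 peaks there had a median width of 727.5 bp (order-statistic interval 434 to 951) at a median score of 64.1, above the members' 46.22. From 7 to 12 Mb the median of 76 peaks was 470.5 bp (423 to 636), and from 12 Mb on that of 65 peaks was 488 bp (426 to 565). The interval for 5 to 7 Mb holds these 2 medians as well as that of the members, so 22 peaks do not place the stretch with either. Of 66 autosomal windows of 1 Mb with at least 10 peaks, the 5 of the left end ranked 16, 15, 8, 2 and 5 by median width, from left to right, and the first rank went to IV from 11 to 12 Mb, at 845.5 bp over 14 peaks.

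ELT-2 peaks in the same interval were only slightly crowded. The ELT-2 list had 36 peaks that start in the first 5 Mb of IV, of 96 on IV and 624 in all. Their density was 7.20 per Mb (Poisson interval 5.04 to 9.97), against 4.85 on the rest of IV (3.70 to 6.24) and 5.70 on I, II, III and V (5.13 to 6.31), and the intervals overlap. Of the other 14 stretches, 2 were denser in ELT-2 peaks. The interval thus held 6.86 H3K4me3 peaks for each ELT-2 peak, against 2.72 on the rest of IV and 3.08 on the other 4 autosomes.

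The ELT-2 peaks were placed differently from the H3K4me3 peaks within the interval. By Mb from the left they numbered 4, 10, 1, 16 and 5, where the H3K4me3 counts were between 33 and 60 throughout. Between the ELT-2 summits at 2284631 and 3158364 lay 873.7 kb without a listed ELT-2 summit and with 48 members, at 54.9 per Mb. This stretch was picked as the longest between neighbouring ELT-2 summits of the interval, so its lack of them follows from the choice. Its density of H3K4me3 peaks was near the 49.4 per Mb of the whole interval. The 48 members had a median width of 709.5 bp and a median score of 44.51, close to those of all members.

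Of the 36 ELT-2 peaks of the interval, 12 overlapped a member by at least 1 bp (33.3%, Wilson interval 20.2 to 49.7), against 2 of 60 on the rest of IV (3.33%, 0.92 to 11.4) and 29 of 369 on I, II, III and V (7.86%, 5.53 to 11.1). The other 14 stretches had shares from 0 to 26.3%, the last at the left end of II. In 10 of the 12 overlaps at least 1 of the paired peaks scored at or under the median of its list. With both lists limited to scores above their medians, 2 of 17 ELT-2 peaks overlapped in the interval (11.8%, 3.29 to 34.3), against 0 of 30 on the rest of IV (Wilson interval up to 11.4) and 2 of 188 on the other 4 autosomes (1.06%, 0.29 to 3.80). Above the upper quartiles it was 0 of 10 in the interval (up to 27.8), against 0 of 15 on the rest of IV (up to 20.4) and 1 of 90 on the other 4 autosomes. H3K4me3 peaks covered 4.30% of the interval, against 0.863% of the rest of IV and 1.14% of the other 4 autosomes, and the part of this coverage in the overlaps was not tested. ELT-2 summits lay a median of 2.66 kb from the closest H3K4me3 summit in the interval, against 28.6 kb on the rest of IV and 23.4 kb on the other 4 autosomes. This distance shortens with a higher density of H3K4me3 peaks alone, and how much of it goes beyond that was not tested. Seen from the members, 12 of 247 (4.86%) overlapped an ELT-2 peak, against 1.23% on the rest of IV and 2.55% on the other 4 autosomes.

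In 9 of the 12 overlaps both summits lay less than 100 bp apart. The closest were at 1689070 to 1689325 (ELT-2 score 38.15, member score 37.55), with summits 2 bp apart, and at 1787816 to 1788279 (54.06 and 55.63) and 3568255 to 3569007 (64.91 and 88.4), each with summits 3 bp apart. Further coinciding ELT-2 peaks started at 631862, 1395459, 3305588, 3417702, 3964385 and 4679352, with summits 11 to 52 bp from the member's. Their scores ran from 30.13 to 55.4, so 3 of the 9 coinciding ELT-2 peaks lay above the ELT-2 list's median of 43.8 and 1 above its upper quartile of 61.3. In the other 3 overlaps the ELT-2 summit lay 371, 515 and 1007 bp from the member's summit, in wide members. These were the ELT-2 peaks from 3554771 to 3556460 (1690 bp, score 33.67, in a member of 2351 bp), from 3856197 to 3857086 (890 bp, score 30.13, in a member of 1253 bp) and from 3611595 to 3612311 (717 bp, score 282.56, at the edge of the member of 3018 bp).

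Of the 6 ELT-2 peaks of the interval with a score over 100, 5 did not overlap a member, where 24 of all 36 did not. Their distances to the closest H3K4me3 summit were on both sides of the interval's median of 2.66 kb, with 3 of the 6 below it. The highest, from 3988628 to 3989036, scored 397.39 14197 bp from the closest H3K4me3 summit. The second, from 3899832 to 3900511, scored 344.76 at a distance of 34461 bp, and that from 3158192 to 3158571 scored 267.46 at 35793 bp. The peak from 3611595 to 3612311, given above, scored 282.56. The next, from 1378953 to 1379380, scored 182.63 and lay 1186 bp from the nearest H3K4me3 summit. The last of the 6, from 3944420 to 3944984, scored 152.51 and lay 898 bp from one. By score, the 12 ELT-2 peaks that met a member had a median of 39.4 and the 24 others one of 49.9.

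**Figure D5:**
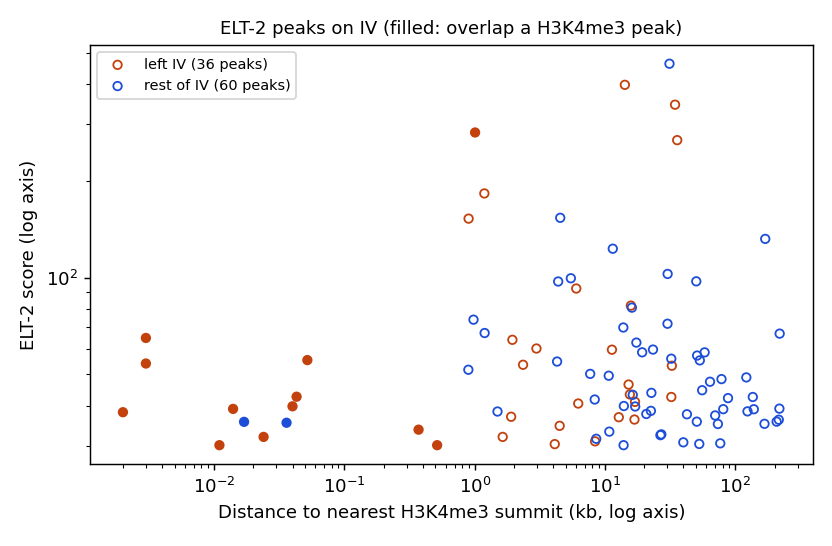
ELT-2 score (log axis) against distance in kb to the nearest H3K4me3 summit (log axis) for the 36 ELT-2 peaks of the left end of IV and the 60 of the rest of IV, filled where the ELT-2 peak overlaps a H3K4me3 peak. Of the 12 filled points of the left end of IV, 9 lie under 0.1 kb, and the 3 highest scores without an overlap there lie 14.2 to 35.8 kb from a H3K4me3 summit.

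ELT-2 peaks of the interval were also wide. Their median width was 418.5 bp, against 306.5 bp on the rest of IV and 333 bp on I, II, III and V, and the other 14 stretches had medians from 286 to 366.5 bp. Without the overlapping ELT-2 peaks the medians were 383.5 bp over 24 peaks in the interval, 303.5 bp over 58 on the rest of IV and 328.5 bp over 340 on the other 4 autosomes. The other 14 stretches then had medians from 286 bp to 366.5 bp, the last at the right end of V and close to the interval's. No intervals were computed for the ELT-2 widths. ELT-2 scores did not stand apart in this way, with medians of 42.98 in the interval, 43.5 on the rest of IV and 44.0 on the other 4 autosomes. Larger width at a like or lower score was thus recorded at the left end of IV in the lists of both antibodies. What else differs between the interval and the other stretches was not tested, since no reads or control tracks were used.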

How the data were processed

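The authors deposited, for each antibody, a list of peaks and one of summits with the caller's score, 1 list for all replicates. Per the submitters' processing notes, the ChIP tools were MACS2 2.0.9, Bowtie 1.1.0 and bedtools, and the build was ce10. Not given in the sources used here are how replicates were combined, the control used and the scale of the score. List names read as removal of IgG, blacklisted and HOT regions and a score over 30, and every listed score was above 30. Such removal can thin or empty a stretch.

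Software was Python 3.11.15 with scipy 1.17.1, numpy 2.4.6, pandas 2.3.3 and matplotlib 3.10.9. Chromosome lengths ran to the last listed peak end. Overlap meant at least 1 shared bp. Shares have Wilson, densities exact Poisson and medians order-statistic intervals, all at 95%. Routines were tested on simulated data. Named sites are the 10 highest-scoring and 5 widest members, 3 on each side of the limit, the 5 fullest groups, the 5 longest stretches between summits, the 5 highest ELT-2 peaks and every overlapping one. Members, lists and comparisons were chosen with earlier results of these data known. Alternatives were stricter scores, limits at 4 and 6 Mb, other grouping distances and overlap rules, and I, II, III and V as the compared region.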

Additional observations from a re-analysis of the deposited data

How the results depend on the processing

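No result is tested, and the limit of every value is that it rests on 1 list per antibody with unknown depth. Of 39 alternative values, 19 lay within the interval of the value reported, 19 lay outside it and 1 turned in direction. For the ratios of median spacing, width and score that interval covers the median of the left end only. The compared region's median was taken as fixed. A turn in direction was looked for only in the ratios of peaks per Mb, spacing, width and score. The shares of IV peaks, grouped members and overlapping ELT-2 peaks were not compared with another region in that count. At a grouping distance of 1000 bp the order of the regions turned, as given above. Above the upper quartiles the ELT-2 share was 0 of 10, against 0 of 15 on the rest of IV and 1 of 90 on I, II, III and V. No paired analysis was possible because no value belongs to a single library, and no replicate could be left out for the same reason. With scores above the median of each list, the ratio of peaks per Mb (left end over rest of IV) was 2.77 in place of 3.75, the share of IV peaks 52.8%, the ratio of median spacing 0.447 in place of 0.259, of width 1.20 in place of 1.44 and of score 0.873 in place of 0.801, the grouped share 30.9% and the ELT-2 share that overlapped 11.8%, or 2 of 17. Above the upper quartiles these were 2.42, 49.5%, 0.355, 1.05, 1.55 (turned in direction), 21.7% and 0%, or 0 of 10 (Wilson interval up to 27.8%). A limit at 4 Mb gave 52.2% of IV peaks and a width ratio of 1.28. Grouping within 1000, 2000 and 10000 bp gave 14.2%, 28.3% and 71.7%. Against I, II, III and V the spacing ratio was 0.366.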
